A study of Rattus norvegicus with 8 samples.

Results

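The genes described here were listed together for bile acid conjugation and transport, and their expression was followed in the kidney cortex of male and female rats. Not all of the listed carriers are known for bile acids, as Slco2a1 encodes the prostaglandin transporter. The list held 10 genes, Slc27a2, Slc27a5, Baat, Slc10a1, Slc10a2, Slc51a, Slc51b, Slco1a1, Slco2a1 and Slco4c1. Every non-control probe whose RefSeq accession belonged to a listed rat gene was taken, and 9 of the 10 genes had a probe, each of them 1, among 14737 named genes and 30367 probes on the array. No probe was mapped to Slc51b, and its level was not analysed here. Where a gene had several probes, the brightest over the 8 arrays was to lead, a choice that did not arise. Beside this brightness and the detection on each array, the genes were chosen by name from earlier results of these arrays, so the share of its genes that differed between the sexes is a description of the list.

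The samples were cortical kidney slices from 4 male and 4 female adult RCCHanTMWIST rats, a Han Wistar stock, each rat hybridised to its own 1-colour Agilent array. The labels give no treatment, and the rats were compared by sex alone. Cortical slices hold proximal tubule beside glomeruli, vessels and other tubule segments, and in such bulk samples fewer cells of a type and less RNA per cell cannot be told apart. All 8 arrays lay on 1 slide with both sexes in each of its 2 rows, and between 73.8% and 79.1% of the probes were well above background on an array. Probes of 7 marker genes of proximal tubule segments 1 and 2 were all well above background on all 8 arrays. None of them passed the limits for sex dependence. Cubn, the receptor cubilin, was higher in females by a log2 fold-change of -0.59 with a limma adjusted p of 0.00452. Gatm at 0.33, Slc5a12 at 0.25 and Slc4a4 at 0.18 lay on the male side, with limma adjusted p of 0.0706, 0.104 and 0.306. The median of the 7 was -0.01. Levels are given as log2 of the processed signal relative to the 75th percentile of the array, so that 0 is the signal of that percentile. Levels of different probes are not on a common scale, and only the same probe is compared between rats. Sex differences are log2 fold-changes, male minus female, and a gene counted as sex-dependent if it met 2 limits in the limma fit over 23425 probes, an adjusted p below 0.05 and a difference of at least 2-fold, which is 1 on the log2 scale.

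Bile acids are made from cholesterol in the liver, where an acyl-CoA synthetase activates them and an acyltransferase joins them to taurine or glycine. The conjugates need carriers to cross membranes. Hepatocytes take them up from portal blood, the ileum recovers them from the gut lumen, and the kidney proximal tubule recovers those that pass the glomerular filter, so that little bile acid is lost in urine.

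Because several of these genes differed between the rats in one way or another, the bases before the start sites of the 4 sex-dependent genes and of Slc27a5 are shown. They are 250 bases long, end just before the RefSeq start site of build GRCr8 and run 5′ to 3′ along the gene. Capitals mark 3 short motifs searched on both strands, the STAT5 core TTCNNNGAA, the HNF1 hexamer GTTAAT and the androgen receptor hexamer TGTTCT, where a match to the other strand shows as its reverse complement.
Slco1a1, chr4:176681993-176682242, minus strand: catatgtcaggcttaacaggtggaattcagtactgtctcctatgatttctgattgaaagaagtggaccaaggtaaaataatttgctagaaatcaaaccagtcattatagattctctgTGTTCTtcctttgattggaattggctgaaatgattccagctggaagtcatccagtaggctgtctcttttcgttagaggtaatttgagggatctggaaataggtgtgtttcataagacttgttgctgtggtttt
Slc51a, chr11:81803891-81804140, plus strand: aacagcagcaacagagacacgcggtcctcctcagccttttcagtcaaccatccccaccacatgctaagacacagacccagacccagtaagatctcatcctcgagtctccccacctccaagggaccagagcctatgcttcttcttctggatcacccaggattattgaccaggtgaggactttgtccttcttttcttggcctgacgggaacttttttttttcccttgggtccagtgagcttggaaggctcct
Slc10a1, chr6:106357945-106358194, minus strand: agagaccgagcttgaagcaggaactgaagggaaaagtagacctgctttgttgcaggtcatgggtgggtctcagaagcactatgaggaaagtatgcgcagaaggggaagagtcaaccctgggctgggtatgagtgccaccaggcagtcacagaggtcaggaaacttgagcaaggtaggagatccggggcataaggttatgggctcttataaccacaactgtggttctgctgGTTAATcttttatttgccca
Baat, chr5:68656138-68656387, minus strand: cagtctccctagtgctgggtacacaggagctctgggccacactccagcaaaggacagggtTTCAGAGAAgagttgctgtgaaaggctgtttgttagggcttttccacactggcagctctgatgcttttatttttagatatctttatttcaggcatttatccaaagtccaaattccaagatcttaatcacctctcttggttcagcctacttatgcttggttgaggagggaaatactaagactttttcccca
Slc27a5, chr1:82699336-82699585, minus strand: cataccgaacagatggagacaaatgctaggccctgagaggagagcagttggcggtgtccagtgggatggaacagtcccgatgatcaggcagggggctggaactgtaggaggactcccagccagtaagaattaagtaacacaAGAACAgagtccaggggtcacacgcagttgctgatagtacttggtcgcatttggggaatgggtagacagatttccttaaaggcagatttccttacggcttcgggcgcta

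All 10 genes had an entry among the 33469 RefSeq promoters searched, which run from 250 bases before to 50 bases after the start. The STAT5 core was found in 8.87% of all promoters and in 1 of the 10 genes, as TTCAGAGAA at position -190 of Baat, which encodes the acyltransferase. The androgen receptor hexamer was found in 20.7% of all promoters and in 3 of the 10, at -133 of Slco1a1, on the other strand at -109 of Slc27a5, and on the other strand at position 37 of Slc51a, which lies after the start and is not printed above. The HNF1 hexamer was found in 7.45% of all promoters and in Slc10a1 at -20 and Slc10a2 at -227. The BCL6 sites TTCCTAGAA and TTCCTCGAA, which are special forms of the STAT5 core, the FXR inverted repeat, the full HNF1 palindrome and the HNF4 direct repeat matched none of the 10, and each matched at most 0.376% of all promoters. A match of letters is a description of the window and not evidence of binding.

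Of the 9 genes with a probe, 8 were well above background on at least 4 arrays and were tested, and 5 of them on all 8 arrays. Slc27a5, Slco1a1 and Slco4c1 were well above background on 7 arrays each and Slc10a2 on 3, so Slc10a2 did not enter the fit. Among the 8 tested genes 4 were called sex-dependent, where 1.89% of all tested probes were. The same 4 passed the adjusted p alone, as did 8.06% of all tested probes. Slco1a1, Slc51a and Slc10a1 were male-dominant, for which the share over all probes was 0.798%, and Baat was female-dominant, for which it was 1.09%. In these 4 genes no male value overlapped a female value, which held for 18.4% of all tested probes. The median log2 fold-change of the 8 genes was 0.53 and the median of its absolute value 1.08, beside -0.04 and 0.154 over all tested probes.

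**Figure D1:**
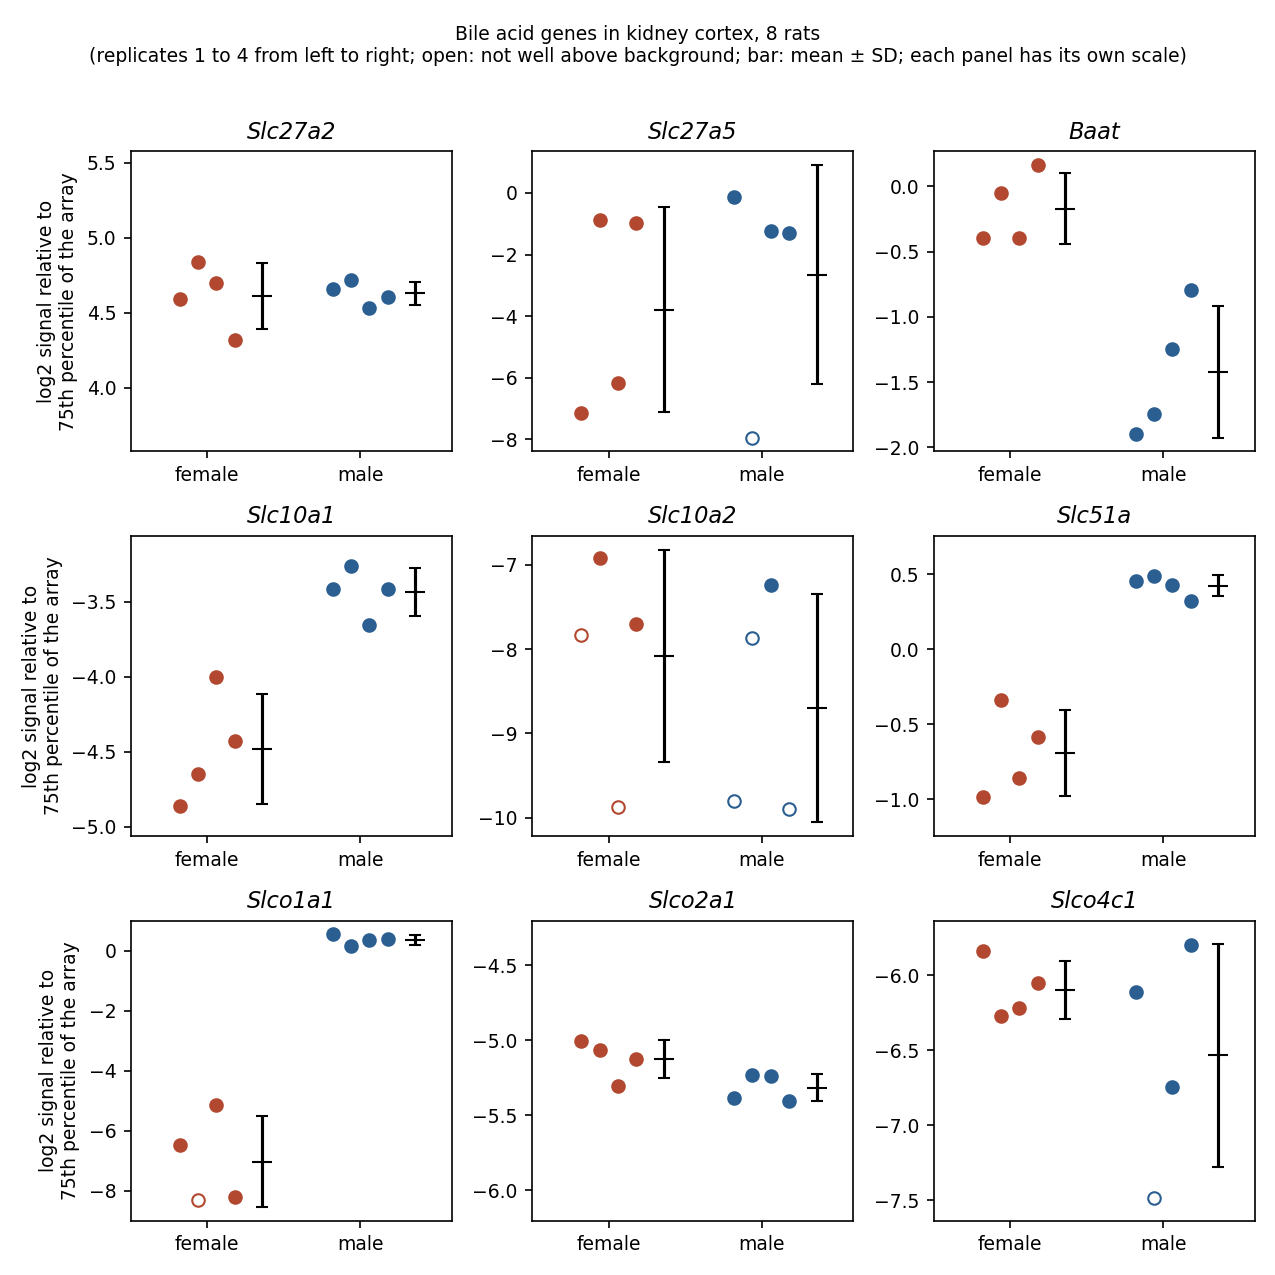
Log2 signal relative to the 75th percentile of the array for the 9 measured genes, 1 point per rat with replicates 1 to 4 from left to right within each sex, open where the probe was not well above background, and bars at the mean ± SD (n = 4 per sex). Each panel has its own scale. Males and females are apart in the panels of Baat, Slc10a1, Slc51a and Slco1a1, and the Slc27a5 panel shows 5 high and 3 low rats spread over both sexes.

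The conjugating enzymes behaved in 3 different ways. Slc27a2 was alike in the sexes to within a narrow interval, Slc27a5 varied more between rats than between the sexes, and Baat was higher in females.

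Slc27a2 encodes a very long-chain acyl-CoA synthetase that also activates bile acids and fatty acids and is abundant in proximal tubule. Its values in female replicates 1 to 4 were 4.59, 4.84, 4.70 and 4.32, and in male replicates 1 to 4 they were 4.66, 4.72, 4.53 and 4.60. The male range lay inside the female range. The log2 fold-change was 0.02 (SE 0.113, n = 4 per sex, limma adjusted p = 0.943), with a 95% interval of -0.24 to 0.28 that ends well short of a 2-fold difference on either side. Without female replicate 4, the lowest of the rats, the difference was -0.08.

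Slc27a5 encodes the bile acyl-CoA synthetase of the liver, which activates bile acids that return to the hepatocyte. Its female values were -7.14, -0.88, -6.16 and -0.97, and its male values -0.14, -7.94, -1.23 and -1.30, in the order of the replicates. Female replicates 1 and 3 and male replicate 2 were low and the other 5 rats high, with no rat in between. Male replicate 2 was not well above background, and among the other 7 rats the highest exceeded the lowest 127-fold. The lowest of these, female replicate 1, had a processed signal of 40.0, so the size of this ratio rests on a signal near background. Whether the probe reads the transcript equally in all rats was not tested. The male mean was -2.65 ± 3.56 and the female mean -3.79 ± 3.33 (SD, n = 4 each). The log2 fold-change of 1.13 (SE 2.07, limma adjusted p = 0.776) was smaller than this spread, and its 95% interval of -3.61 to 5.88 leaves a large sex difference in either direction undecided. A two-sided exact permutation test over the 70 assignments of rats to sexes gave p = 0.857. Within the slide rows the difference was 2.84 in the first and -0.57 in the second, and with 1 rat left out it ran from 0.02 to 2.90, the lowest without female replicate 1 and the highest without male replicate 2.

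The probe of Slc27a5 stood on each array as 2 spots at separate places, and both spots placed each rat on the same side. In the low rats the processed signals of the spots were 39.4 and 40.6 in female replicate 1, 77.4 and 77.9 in female replicate 3, and 39.1 and 13.8 in male replicate 2, and in the other 5 rats all spots lay between 2583 and 6017. The median difference between the spots of an array was 0.033 on the log2 scale and the largest, in male replicate 2, was 1.51. The standard error of Slc27a5 was the second largest of the 23425 tested probes. Its neighbours on chromosome 1 stayed level over the same rats, as the values of Zbtb45 spanned 0.334, those of Trim28 0.287 and those of Chmp2a 0.234 on the log2 scale, beside 7.79 for Slc27a5. Of the 6 hepatocyte markers, Tat and Cps1 were well above background on none of the 8 arrays, Serpina1 on 5, albumin on 7 and Apoh and Fgb on all 8. Albumin was -4.79, -7.67 and -7.55 in the 3 rats low in Slc27a5, and between -8.02 and -5.37 in the 5 high rats.

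**Figure D2:**
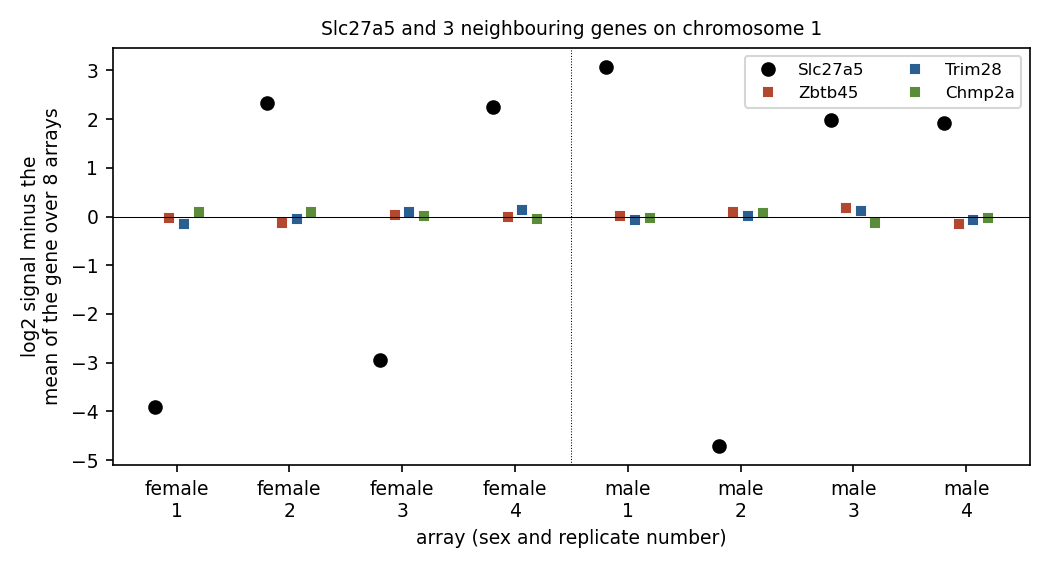
Log2 signal of Slc27a5 and of its neighbours Zbtb45, Trim28 and Chmp2a in each of the 8 rats, each gene centred on its own mean over the arrays, females left and males right of the dotted line. Slc27a5 falls to low values in female replicates 1 and 3 and male replicate 2, while the 3 neighbours span between 0.234 and 0.334 on the log2 scale.

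Baat encodes the enzyme that joins activated bile acids to taurine or glycine. Its female values were -0.40, -0.05, -0.40 and 0.16, and its male values -1.90, -1.74, -1.24 and -0.79. The highest male lay below the lowest female, and the males were more spread out than the females. Baat was 2.38-fold higher in females, with a log2 fold-change of -1.25 (SE 0.250, limma adjusted p = 0.0226) and p = 0.0286 in the two-sided exact permutation test, the smallest p that 4 against 4 rats allow. The difference was -1.23 in the first slide row and -1.27 in the second. The adjusted p rose to 0.0651 without female replicate 2 and to 0.0627 without male replicate 2, with differences of -1.21 and -1.14. Of the genes near Baat on chromosome 5, Plppr1 stood at a sex difference of -1.06 (adjusted p = 0.0511), in the direction of Baat and short of the threshold, while the acyltransferase gene Acnat2 stood at -0.47 (adjusted p = 0.573) and the mitochondrial ribosomal gene Mrpl50 at 0.00.

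The summed level of the hepatocyte markers was 0.370 to 0.405 in females and 0.196 to 0.257 in males, a sum made up mostly of Fgb. The median log2 fold-change of the 4 tested markers was 0.38, on the male side, and 2 of them were called, Apoh (beta-2-glycoprotein) higher in males by 2.86 and Fgb (fibrinogen beta) lower in males by 1.35 on the log2 scale, and the part of this list in the Baat result was not tested. The enterocyte list spanned 0.0596 to 0.0750 in females and 0.0481 to 0.0738 in males, with Fabp2 well above background on no array and Cdx2, at -0.90 (adjusted p = 0.166), and Lct, at 0.01, on all 8.

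Of the sodium-dependent carriers, Slc10a1 was male-dominant by a margin that barely passed the 2-fold limit, and Slc10a2 lay at the edge of detection. Slc10a1 encodes NTCP, which takes conjugated bile acids into hepatocytes together with sodium. Its female values were -4.86, -4.65, -4.00 and -4.42, and its male values -3.41, -3.26, -3.65 and -3.41. All males lay above all females and the males were close together. The mean was -3.43 ± 0.162 in males and -4.48 ± 0.368 in females (SD, n = 4 each), a 2.07-fold difference with a log2 fold-change of 1.05 (SE 0.179, limma adjusted p = 0.0117) and an exact permutation p of 0.0286. The 95% interval of 1.56-fold to 2.75-fold includes values on both sides of the 2-fold limit. The difference was 0.80 in the first slide row and 1.30 in the second, and it fell under the limit without female replicate 1 (0.92), female replicate 2 (0.99) or male replicate 2 (0.99), and with normexp background correction (0.93) or array weights (0.99).

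Slc10a2 encodes ASBT, the carrier that recovers bile acids in the ileum and at the luminal side of the proximal tubule. Its values were -7.83, -6.92, -9.88 and -7.70 in the females and -9.80, -7.87, -7.24 and -9.90 in the males. It was well above background in female replicates 2 and 4 and male replicate 3, and the sexes overlapped over most of their range. An exact permutation test gave p = 0.486, and at this signal no sex difference was found and none was excluded. With no filter on dim probes its log2 fold-change was -0.62 (SE 0.813, limma adjusted p = 0.710).

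Slc51a encodes OST-alpha, a subunit of the carrier that lets bile acids out of the cell at its basolateral side, together with OST-beta from Slc51b. Its female values were -0.98, -0.34, -0.86 and -0.58, and its male values 0.45, 0.49, 0.43 and 0.33. The 4 males lay within a narrow band above every female. The mean was 0.426 ± 0.071 in males and -0.691 ± 0.288 in females (SD, n = 4 each). Slc51a was 2.17-fold higher in males (95% interval 1.74-fold to 2.70-fold), with a log2 fold-change of 1.12 (SE 0.137, limma adjusted p = 0.00303) and an exact permutation p of 0.0286. The slide rows gave 1.11 and 1.12, and leaving out 1 rat gave 1.02 to 1.23. The pair Slc51a and Slc51b could not be compared for want of a Slc51b probe.

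Organic anion transporting polypeptides (OATPs) carry bile salts, steroid conjugates, prostaglandins and many drugs without sodium. Slco1a1, the founding member of the family and a carrier of the liver and of the luminal side of the proximal tubule, showed the widest sex difference of the 8 tested genes. Its values were -6.46, -8.31, -5.14 and -8.21 in females, and 0.55, 0.17, 0.36 and 0.40 in males. The males were close together far above every female, whereas the females were widely spread. The mean was 0.367 ± 0.158 in males and -7.03 ± 1.52 in females (SD, n = 4 each), and the log2 fold-change was 7.40 (SE 0.650, limma adjusted p = 0.000807), a 168.6-fold difference with a 95% interval of 60.0-fold to 473-fold. With normexp background correction it was 85.2-fold. Of all 23425 tested probes, 0.00427% had a larger absolute change. The exact permutation p was 0.0286, and the slide rows gave 7.15 and 7.65. The probe was well above background in 3 of the 4 females and not in female replicate 2. Female replicate 4 passed with a processed signal of 20.1, beside 16.7 in female replicate 2. The levels of these rats, and with them the size of the difference, rest on signals near background. Leaving out 1 rat gave 6.97 to 8.03.

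Slco2a1 encodes the prostaglandin transporter. Its values were -5.01, -5.07, -5.30 and -5.13 in females and -5.38, -5.23, -5.24 and -5.41 in males. The sexes overlapped, and the log2 fold-change was -0.19 (SE 0.086, limma adjusted p = 0.213, exact permutation p = 0.0857).

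Slco4c1 encodes a basolateral OATP of the proximal tubule that takes up cardiac glycosides and thyroid hormone. Its values were -5.84, -6.27, -6.22 and -6.05 in females and -6.11, -7.48, -6.74 and -5.80 in males. Male replicate 2 was the lowest and was not well above background. The log2 fold-change was -0.44 (SE 0.332, limma adjusted p = 0.456, exact permutation p = 0.343), with a 95% interval of -1.20 to 0.32. The difference was 0.18 in the first slide row and -1.06 in the second, and -0.12 without male replicate 2.

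**Figure D3:**
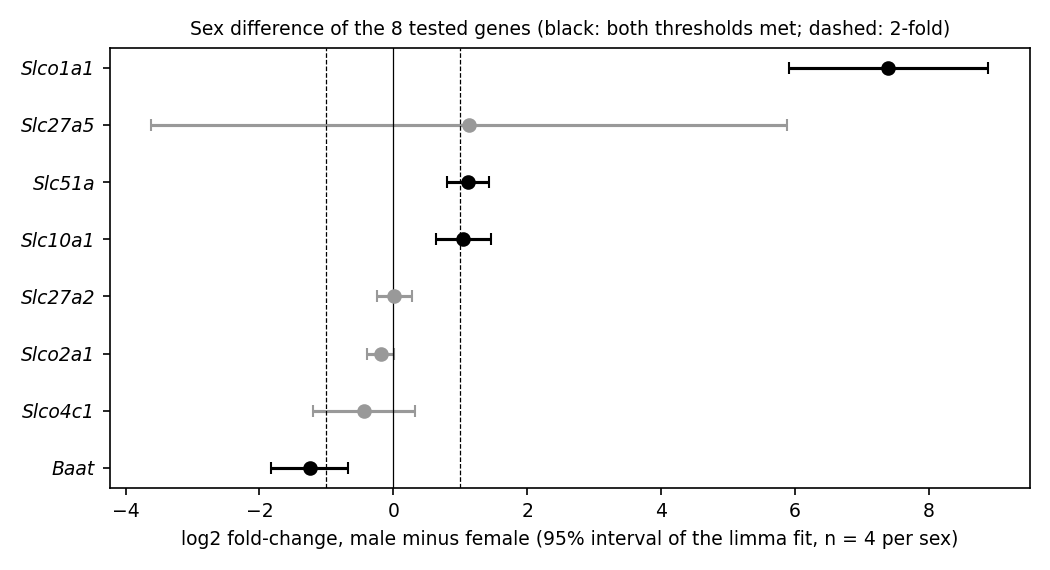
Log2 fold-change, male minus female, with its 95% interval from the limma fit (n = 4 per sex) for the 8 tested genes, black where both thresholds were met and grey otherwise, with dashed lines at 2-fold. Slco1a1 stands at 7.40, Slc51a, Slc10a1 and Baat lie just past the 2-fold lines, and the interval of Slc27a5 runs from -3.61 to 5.88.

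Pairs of members were compared by taking, in each rat, the difference between their log2 values and asking whether it differed between the sexes. For Slco1a1 minus Slco4c1 the male and female values differed by 7.83, with p = 0.0286 in the exact permutation test and 0.114 after Benjamini-Hochberg adjustment over the 4 pairs compared. For Slc10a1 minus Slc10a2 it was 1.67 (exact p = 0.143, adjusted p = 0.286), a value that rests on Slc10a2 signals not well above background on 5 of the 8 arrays. It was 2.38 for Slc27a5 minus Baat (exact p = 0.229, adjusted p = 0.305) and -1.12 for Slc27a2 minus Slc27a5 (exact p = 0.886, adjusted p = 0.886). No pair passed, and with 4 rats per sex and 4 pairs an adjusted p under 0.05 would need more than 2 pairs at the smallest p.

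Slco1a1 lies on chromosome 4 among other Slco1a genes that arose by duplication. Slco1a6, an OATP known from rat kidney, ran the other way. Its values were 0.42, -0.47, -0.05 and -1.23 in females and -2.09, -3.00, -2.43 and -2.43 in males, with a log2 fold-change of -2.15 (SE 0.341, limma adjusted p = 0.00879). The sex difference was -0.06 for Slco1a3 (adjusted p = 0.928), which encodes the kidney carriers OAT-K1 and OAT-K2, 0.19 for Slco1a4 (adjusted p = 0.455) and 0.19 for Slco1a5 (adjusted p = 0.739), and none of these 3 met the thresholds. Slco1b2 and Slco1c1, next to them on the chromosome, were well above background on no array. Slco1a1 and Slco1a6 thus differed between the sexes in opposite directions. These genes have similar sequences, the probe sequences were not used here, and how far a probe reads a neighbouring paralog was not tested.

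**Figure D4:**
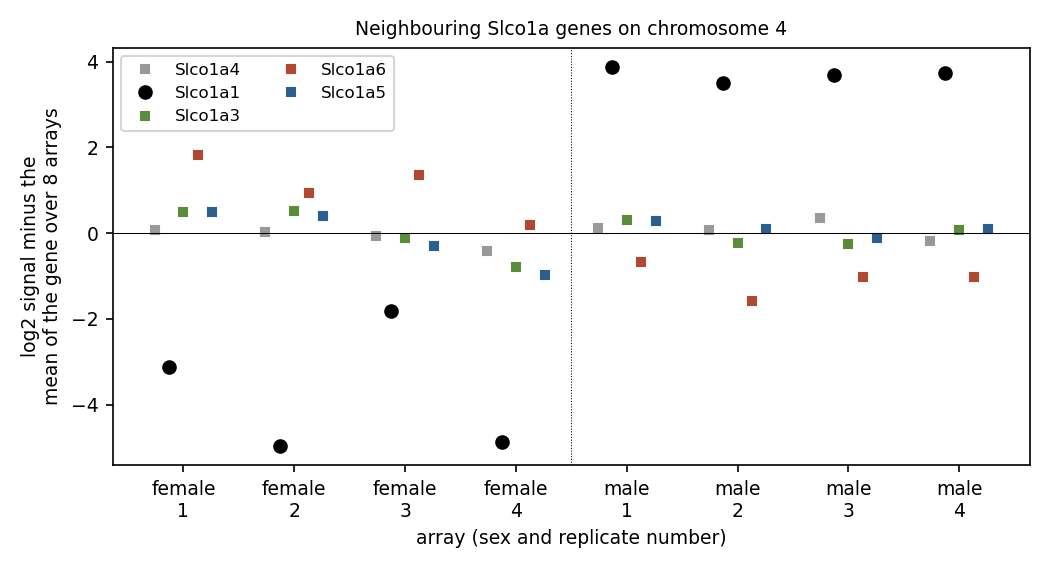
Log2 signal of 5 Slco1a genes of chromosome 4 in each of the 8 rats, each centred on its own mean over the arrays, females left and males right of the dotted line. Slco1a1 is high in all 4 males, Slco1a6 is higher in each female than in each male, and the points of Slco1a3, Slco1a4 and Slco1a5 overlap between the sexes.

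A list of 72 further genes of bile acid handling was read beside the 10, and 65 had a probe and 49 were tested. Of these, 4 were called, or 8.16%, 1 male-dominant and 3 female-dominant, where the shares over all tested probes were 1.89%, 0.798% and 1.09%. Abcb11 and Akr1c14 were well above background on 4 and 6 arrays, and each met the filter of 4 arrays through the sex in which it was higher. With normexp correction or a filter on all 8 arrays, 2 were called, and the share is a description of the list. The median log2 fold-change of the 49 was -0.01 with a median absolute value of 0.202. Among the 9 tested ATP-dependent exporters 1 was called. Abcb11, the bile salt export pump of the liver, was well above background in all 4 males and in no female. Counted against the lowest signal well above background on each female array, it was at least 2.23-fold higher in males. This bound was not tested. The limma adjusted p of 0.00566 belongs to the fitted log2 fold-change of 2.03, which uses female signals not well above background. Abcb11 entered the fit through its male arrays alone. With normexp correction or a filter on all 8 arrays, no further gene was called male-dominant. Abcc2, a luminal conjugate exporter of the proximal tubule, differed by 0.40 on the log2 scale with an adjusted p of 0.00627 but stayed under 2-fold, and Abcc4, another luminal exporter, had 0.26 (adjusted p = 0.261). Abcg2, also a luminal exporter, had 0.65 (adjusted p = 0.0126), under 2-fold and with no overlap between the sexes. Such lack of overlap held for 11 of the 49 tested further genes, beside 18.4% of all tested probes.

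Among the 12 tested genes of bile acid synthesis, 2 were called, both female-dominant, beside 1.09% of all tested probes. Hsd17b4 of the same list went the other way, at 0.58 (SE 0.138, adjusted p = 0.0420), under 2-fold and with no overlap between the sexes. Acox2, the peroxisomal oxidase that shortens the side chain of bile acid precursors, had -2.79, -3.47, -3.48 and -4.29 in females and -5.35, -5.82, -5.54 and -5.55 in males, a log2 fold-change of -2.05 (SE 0.278, adjusted p = 0.00465). Akr1c14, the rat 3-alpha-hydroxysteroid dehydrogenase, stood at a log2 fold-change of -1.24 (SE 0.277, adjusted p = 0.0332) and was well above background on 6 arrays, 4 female and 2 male. Male replicates 1 and 4, at -8.37 and -8.35, were not well above background, so the size of this difference rests on signals near background. Its 4 female arrays alone met the filter of 4 arrays, and a filter on all 8 arrays removed it. None of the 12 tested receptors and regulators was called. Nr1h4, the bile acid receptor FXR, was at 0.07 (adjusted p = 0.653). Nr0b2, the repressor SHP that FXR induces, was at -0.77 (adjusted p = 0.0111), with no overlap between the sexes and under the 2-fold limit. None of the 5 tested further conjugating enzymes was called either, with the fatty acid carrier and synthetase gene Slc27a1 at -0.19 (adjusted p = 0.200). Of the 11 other tested SLC10 and OATP genes, Slco1a6 was called.

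**Figure D5:**
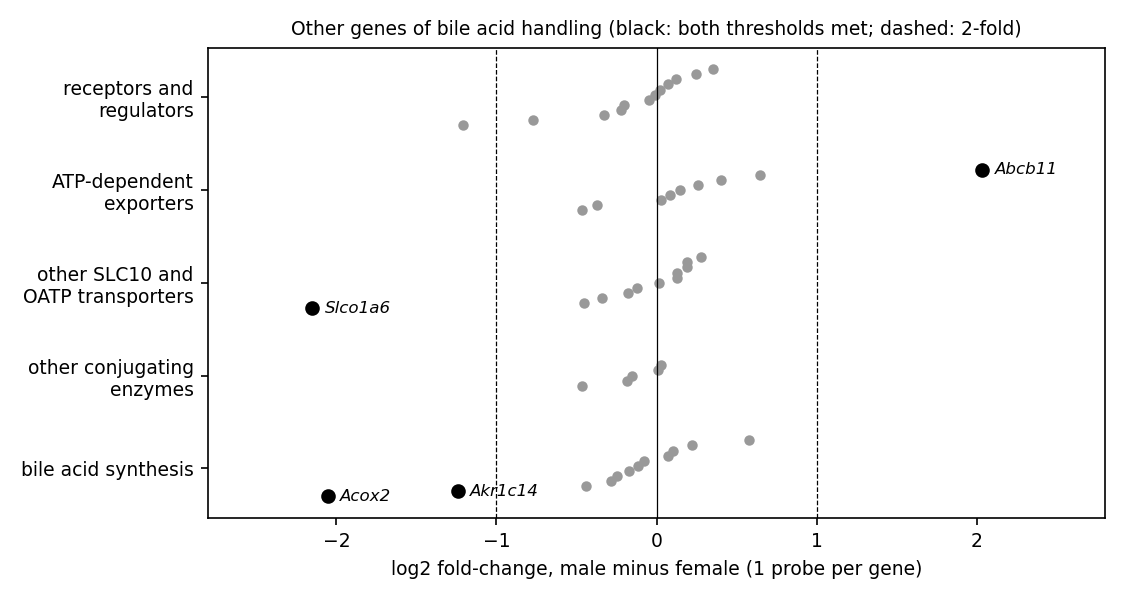
Log2 fold-change, male minus female, of the 49 tested further genes of bile acid handling, 1 point per gene in 5 groups, black and named where both thresholds were met, with dashed lines at 2-fold. Abcb11, drawn at its fitted value of 2.03 from female signals not well above background, lies to the male side and Acox2, Akr1c14 and Slco1a6 to the female side, and most other points lie near 0. The value of Akr1c14 rests in part on male signals not well above background.

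For the 3 genes with the largest change among those well above background on all 8 arrays, the named genes whose values moved most alike over the 8 rats were looked up among 11824, by the root mean square difference of log2 values centred on each gene's mean. Nearest to Baat were Aqp4, a water channel of the collecting duct (0.245), Stra6, the receptor for retinol-binding protein (0.273), and SPATA45 (0.283). Nearest to Slc51a were B4galt5, a galactosyltransferase (0.138), Ppard, a fatty acid-sensing nuclear receptor (0.157), and Nabp1, a single-strand DNA-binding protein (0.158). Nearest to Slc10a1 were Gsta6, a glutathione transferase (0.158), Aknad1 (0.163) and Serpinb1a, a protease inhibitor (0.171). These are descriptions over 8 rats in which the sex difference itself makes up much of the likeness.

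The marker lists of other kidney cell types were read for the same rats. The summed level of proximal tubule segments 1 and 2 was 154 to 165 in females and 157 to 160 in males, while that of segment 3 was 68.0 to 101 and 60.9 to 68.8 and that of thick ascending limb 73.6 to 83.9 and 61.9 to 68.0, both lists with no gene called. The glomerular list was 12.2 to 13.0 in females and 10.5 to 11.0 in males, the collecting duct list 44.9 to 59.7 and 36.8 to 49.7, and the endothelial list 12.2 to 13.5 and 11.7 to 12.8. No gene of these 3 lists was called. The limma adjusted p alone was passed by Cldn16 at -0.62 (0.0287) and Egf at -0.38 (0.0301) of the thick ascending limb list. Podxl of the glomerular list, at -0.27 (0.0354), passed it too, and these genes were higher in females. The part of these marker differences in the results for Baat, which was higher in females, and for Slco1a1, Slc51a and Slc10a1, which were higher in males, was not tested.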

How the data were processed

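Cortical kidney RNA of 4 male and 4 female rats was hybridised to 1-colour arrays. The authors scanned the arrays with Feature Extraction 10.7.3.1, and the deposited scanner files hold background-subtracted processed intensity per spot. The deposited value table holds the authors' quantile-normalised log2 values (limma 3.8.2 per the labels), used as an alternative. Here outlier spots were left out, log2 intensity was set relative to the 75th percentile of each array, replicate spots were averaged, and probes well above background on 4 or more arrays were tested with limma 3.58.1 in R 4.3.3 with Benjamini-Hochberg adjustment. A probe counted as well above background on an array where over 50% of its spots were. Single genes also had a two-sided exact permutation test over 70 assignments. Replicates are separate rats, and the number of arrays limits the precision. In simulated arrays with 200 genes shifted by 2 in log2, the fit called 188 of them and 2 others. Smaller shifts, such as those of Slc51a, Slc10a1 and Baat, were not simulated. Summed marker levels are sums of linear signals relative to the 75th percentile. Named genes were all listed members, further genes of bile acid handling that met both thresholds with Nr1h4, Abcc2, Abcc4 and Slc27a1, the 3 nearest genes of 3 members, and defining hepatocyte and enterocyte markers. Neighbours on the chromosome, Abcg2, Nr0b2, Hsd17b4, Cubn, Gatm, Slc5a12, Slc4a4, Cldn16, Egf and Podxl were added after their values were seen. The members and lists were chosen with earlier results of these data known. Of 8 sex-linked genes looked for, 0 had a named probe, so the sex labels were not checked. Promoters came from RefSeq (GRCr8), and coordinates of the array's own build were not used. Figures were drawn with Python 3.11.15 and matplotlib 3.10.9.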

Additional observations from a re-analysis of the deposited data

Results flagged for a closer look

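Slc27a5 in male replicate 2 was at -7.94, while the other 3 males lay between -1.30 and -0.14, a gap wider than the limit for 4 samples at the 95% level. It was the only such value in the 18 groups looked at, 9 genes in 2 sexes, and chance flags about 1 in 20 groups. The female group has 2 low rats, and such a split cannot be picked out by this measure.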

How the results depend on the processing

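The direction of Slco1a1, Slc51a, Slc10a1 and Baat held under every alternative run, which were quantile normalisation, the authors' log2 values, normexp background correction, no filter on dim probes, a filter on all 8 arrays, outlier spots kept, array weights, blocks of replicate number or of slide row, a robust prior following intensity, each rat left out in turn and, chosen after seeing the data, 50% of a probe's spots sufficing for detection. The filter on all 8 arrays removed Slco1a1, Slc27a5 and Slco4c1. Slco1a1 ran from 6.41 to 7.44 without leaving a rat out, Slc51a from 1.11 to 1.13 and Baat from -1.25 to -1.19. Slc10a1 fell under the 2-fold limit with normexp (0.93) and with array weights (0.99). Normexp and the filter on all 8 arrays each left 2 calls among the further genes. With 1 rat left out the calls over all probes ran from 355 to 495, those among the members from 2 to 4 (2 without female replicate 2 and without male replicate 2) and those among the further genes from 3 to 4. Slc10a1 then ran from 0.92 to 1.21, Baat from -1.46 to -1.09, and Slc27a2 from -0.080 to 0.094, changing sign without female replicate 4 (-0.080) and male replicate 2 (-0.013). Causes were not tested.

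The replicate numbers were not taken as pairing the rats, since deviations of same-numbered rats correlated at -0.0079 to 0.125 and not above 0.1 in every pair. As a hint from the data the other way, 5 of 8 rats correlated best with their own number. With the replicate number as a block 372 probes were called in place of 443 and Slc10a1 had an adjusted p of 0.0566 at an unchanged 1.05. No member has a second probe, so other probes could not be tried. Slc10a2, female Slco1a1 and Slc27a5 in its lowest rats are limited by signal near background.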
